A study of Mus musculus with 8 samples.

Results

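All c-Kit+ bone marrow progenitors of middle-aged mice were compared with those of old mice, over the whole sorted population and not over stem cells alone. The cells came from 2 mice aged 50 weeks and 2 mice aged 78 weeks (male) and 79 weeks (female), with 1 male and 1 female at each age and 1 library per mouse. Every cell with 1000 or more unique molecular identifiers (UMIs, the count of captured RNA molecules) and under 10% of its UMIs in genes of the mitochondrial genome was a member. The rule kept 21155 of 27971 cells in the 4 libraries, with 9901 at 50 weeks and 11254 at 78 to 79 weeks, out of 46159 such cells in all 8 libraries of the series. The mice were wild-type and carried no treatment, and the cells were sorted as Lineage- c-Kit+, which removes mature blood cells and keeps haematopoietic stem and progenitor cells. The remaining 4 mice, a male and a female at 14 weeks (young) and at 95 weeks (very old), entered the fit and are given beside the results. The 2 mice of an age were of different sex, so a spread between them holds both mouse and sex. The labels do not give the strain of these mice.

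Lineage- c-Kit+ marrow holds the haematopoietic stem cell (HSC) at its top and the committed progenitors that divide fast to supply granulocytes, monocytes, basophils, platelets and red cells. Each branch is known by genes it switches on early. Granulocyte-monocyte progenitors load primary granules with Mpo, Elane, Prtn3 and Ctsg, megakaryocyte progenitors make Pf4, and erythroid progenitors express Klf1 and Car1. Ageing of the mouse marrow is known for more phenotypic HSC, for a bias towards myeloid and platelet output and for fewer lymphoid progenitors.

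The 4 libraries held between 78568170 and 97788177 UMIs in the cells kept, and the median depth per cell was 16692 and 17426.5 UMIs in the middle-aged male and female against 14486 and 11647 in the old male and female. Throughout, 4 values in a row are in this order of mice. Each pair of these libraries shared between 7 and 23 cell barcodes. Kit, the receptor used for the sort, was detected at 75.2, 94.2, 86.0 and 90.5 CPM (UMIs of a gene scaled to 1000000 UMIs per mouse), with overlapping groups and a log2 difference of 0.06 ± 0.11 (SE). Transcripts of plasma cells, whose list was led by Igkc (an immunoglobulin light chain), lay at 4.79, 284, 257 and 357 CPM, so the middle-aged male stood apart from the other 3 mice. The lists of macrophage (18.5 to 25.3 CPM) and endothelium (3.44 to 5.14) overlapped between the ages, while the stroma list, at 12.7, 12.9, 13.5 and 14.6, was slightly higher in both old mice. Their part in the results was not tested.

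No gene passed the test between the ages. Of 15192 genes tested with edgeR's quasi-likelihood test on UMIs summed per mouse, 0 (0%) had an adjusted p under 0.05, the smallest adjusted p was 0.318, and 1685 (11.1%) had an unadjusted p under 0.05, 911 of them higher and 774 lower in the old mice. DESeq2 in the same design called 67 genes higher (0.441%) and 75 lower (0.494%), with no adjusted p for 2062 genes. In a fit of the 4 mice alone, edgeR called 6 genes higher (Clec1a, Clec4a2, Gm43305, Ltb, Slc15a2 and Ypel3) and 5 lower (Ifitm1, Mid1, Myl10, Socs3 and Vldlr). The median log2 difference over all tested genes was 0.01. Both old mice lay above both middle-aged mice at 3378 genes (22.2%) and below them at 2916 (19.2%). Among the 5285 genes at 20 or more CPM these shares were 15.1% above and 30.5% below. The counts of genes given below are to be read against those shares. All lists were chosen with earlier results of these data known, so their counts are no independent evidence. The edgeR test of a different response in males and females found 0 genes, with 191 at an unadjusted p under 0.05. That fit matched the middle-aged and old mice exactly and took its spread from the young and very old mice alone. It could hardly call a gene, so nothing is concluded from its result.

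**Figure D1:**
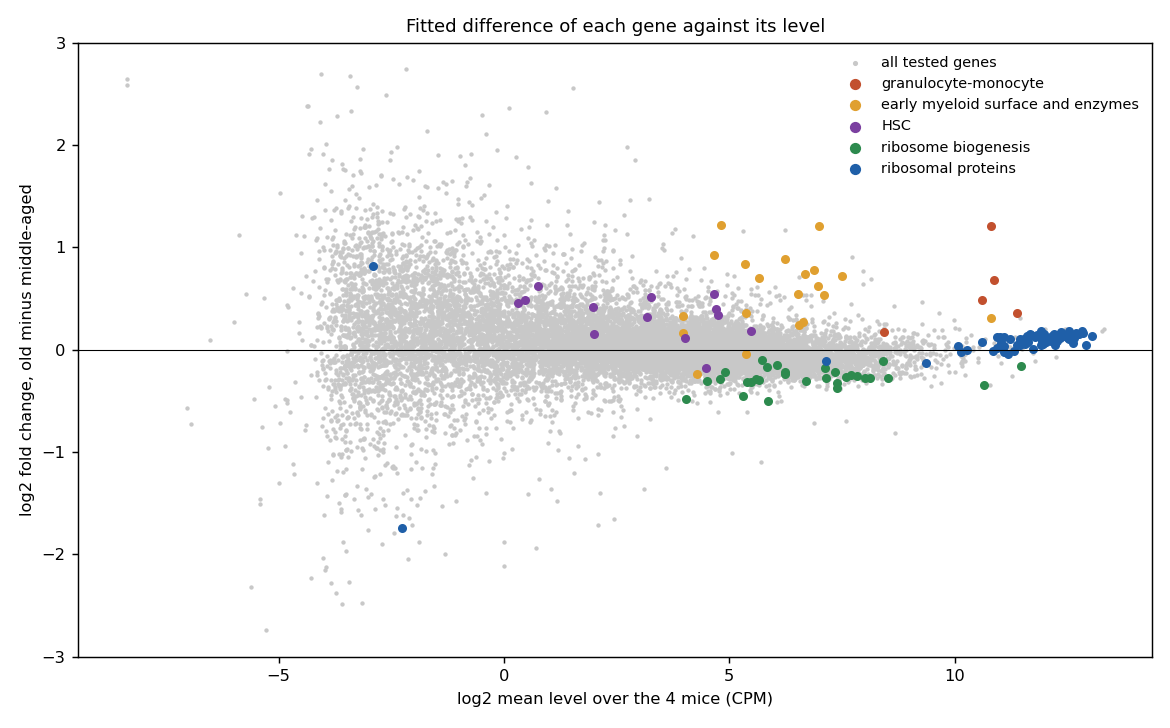
Each point is a gene, with the log2 of its mean level over the 4 mice (CPM) on the x axis and its fitted log2 fold change, old minus middle-aged, on the y axis; 12 genes lie outside the y axis. The 5 granulocyte-monocyte genes (red) and most early myeloid genes (orange) lie above 0, the 30 ribosome biogenesis genes (green) lie below 0, and most of the abundant ribosomal protein genes (blue; 74 of 83 tested) lie slightly above it.

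Granulocyte-monocyte genes took a larger part of the RNA in the old mice, and a larger share of cells was positive for them after thinning. The 5 genes of this list encode Mpo (myeloperoxidase), the granule proteases Elane, Prtn3 and Ctsg, and the membrane protein Ms4a3, and all of them are switched on as progenitors commit to granulocytes and monocytes. All 5 had a positive log2 difference (median 0.49). At 2 of the 5 (40%, against 22.2% of all tested genes), Mpo and Elane, both old mice lay above both middle-aged mice. The list took 7349 and 5993 CPM in the middle-aged male and female and 12567 and 7588 in the old ones, which is 1.71 times the middle-aged level in males and 1.27 times in females. The groups did not overlap, though the old female was only slightly above the middle-aged male. The young mice had 7562 and 6786 CPM and the very old mice 4634 and 7151. In such sums, more cells of a type and more RNA per cell cannot be told apart.

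The promoters of these 5 genes are shown because the genes share an early myeloid programme. Each run gives 250 bases before and 50 bases after the transcription start, 5′ to 3′ on the gene's strand, from RefSeq (GRCm38.p6). Mpo lies on the plus strand at chr11:87793534-87793833, Elane (plus) at chr10:79886062-79886361, Prtn3 (plus) at chr10:79879417-79879716, Ctsg (minus) at chr14:56102525-56102824 and Ms4a3 (minus) at chr19:11640802-11641101. Capitals mark GAGGAA, letters that the myeloid factor PU.1 recognises.
Mpo: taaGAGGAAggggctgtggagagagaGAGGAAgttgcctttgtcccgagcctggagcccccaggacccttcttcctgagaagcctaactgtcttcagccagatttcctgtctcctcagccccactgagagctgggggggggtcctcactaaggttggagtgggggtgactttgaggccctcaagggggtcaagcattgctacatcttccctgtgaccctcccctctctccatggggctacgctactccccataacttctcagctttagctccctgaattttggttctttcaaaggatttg
Elane: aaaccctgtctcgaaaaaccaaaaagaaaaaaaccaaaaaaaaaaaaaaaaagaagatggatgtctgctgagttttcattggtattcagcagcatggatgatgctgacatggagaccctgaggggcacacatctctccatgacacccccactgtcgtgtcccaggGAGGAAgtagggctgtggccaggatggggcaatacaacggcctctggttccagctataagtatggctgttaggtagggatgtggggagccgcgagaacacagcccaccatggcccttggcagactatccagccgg
Prtn3: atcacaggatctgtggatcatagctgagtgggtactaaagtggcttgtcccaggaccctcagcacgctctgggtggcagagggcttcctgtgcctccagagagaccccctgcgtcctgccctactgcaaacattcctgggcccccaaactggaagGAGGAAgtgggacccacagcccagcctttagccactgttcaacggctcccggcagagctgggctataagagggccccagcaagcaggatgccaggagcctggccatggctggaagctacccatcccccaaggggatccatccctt
Ctsg: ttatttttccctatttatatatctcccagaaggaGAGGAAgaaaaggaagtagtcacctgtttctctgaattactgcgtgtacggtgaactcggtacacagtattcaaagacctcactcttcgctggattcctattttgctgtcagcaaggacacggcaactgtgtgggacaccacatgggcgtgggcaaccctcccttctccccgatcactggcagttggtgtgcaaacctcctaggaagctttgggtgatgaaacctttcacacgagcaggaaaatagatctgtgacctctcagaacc
Ms4a3: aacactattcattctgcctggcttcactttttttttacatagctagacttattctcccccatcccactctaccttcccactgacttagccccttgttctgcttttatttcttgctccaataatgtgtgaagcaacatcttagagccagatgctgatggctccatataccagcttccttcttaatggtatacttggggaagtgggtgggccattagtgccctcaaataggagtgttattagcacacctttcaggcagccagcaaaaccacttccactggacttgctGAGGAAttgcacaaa

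The letters GAGGAA on either strand were found in 5 of the 5 windows, with 2 copies at Mpo, and in 28.3% of all 27025 promoters of the same length (7652 of them). TTGCNNAA, letters of the C/EBP factors that act in granulocytes, stood in 1 of the 5, directly after the capitals at Ms4a3, and in 10.8% of all promoters. These matches describe the windows and do not show binding.

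Mpo was at 1359 and 1495 CPM (scaled by TMM, as are all gene levels in sums over all cells) in the middle-aged male and female and at 2549 and 2030.2 in the old male and female. Both old mice were above both middle-aged ones, with a log2 difference of 0.68 ± 0.18 (SE), and DESeq2 called it (adjusted p = 0.0227) while edgeR did not. The young mice had 1987 and 1770.5 and the very old mice 1214 and 1715, so the middle-aged mice held lower values than the young mice too. Elane, neutrophil elastase, was at 1185, 959, 3542 and 1509, with the old male far above the other 3 mice and a log2 difference of 1.21 ± 0.41. Prtn3 was at 2779.5, 1874, 3944 and 2069.7, where the groups overlapped. Ctsg, at 1423, 1146, 2237 and 1399.7, and Ms4a3, at 400.0, 246, 476 and 254, overlapped likewise, and in both the old mouse was the higher of each sex.

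To count cells without an effect of depth, every cell was thinned at random to 1000 UMIs, and a cell with 2 or more UMIs of a list was called positive for it. Granulocyte-monocyte-positive cells made up 40.3% of cells in the middle-aged male (2009 cells, 95% Wilson interval 38.9% to 41.6%), 41.9% in the middle-aged female (2057 cells, 40.5% to 43.3%), 53.6% in the old male (2798 cells, 52.3% to 55.0%) and 47.6% in the old female (2871 cells, 46.3% to 48.8%). The old mice were above the middle-aged mice in both sexes, by more than these intervals, which cover counting error only and not the spread between mice. With 2 mice against 2, an exact two-sided permutation test cannot give a p below 0.333, so no test was made of any list. The young mice had 44.9% and 41.2%, and the very old mice 30.9% and 41.5%. Without thinning, nearly every cell carried 2 UMIs of the list (92.2%, 95.0%, 96.6% and 91.6%). A higher level per cell can also bring a cell to 2 UMIs after thinning. Shares of positive cells, here and below, therefore do not tell cell number from level. In cells positive for the early erythroid list, which should lack these genes, 5.15%, 9.60%, 5.24% and 14.0% were positive at median depths of 16598, 19108, 28787 and 12407 UMIs, and this background was higher in the old female than in the other 3 mice.

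**Figure D2:**
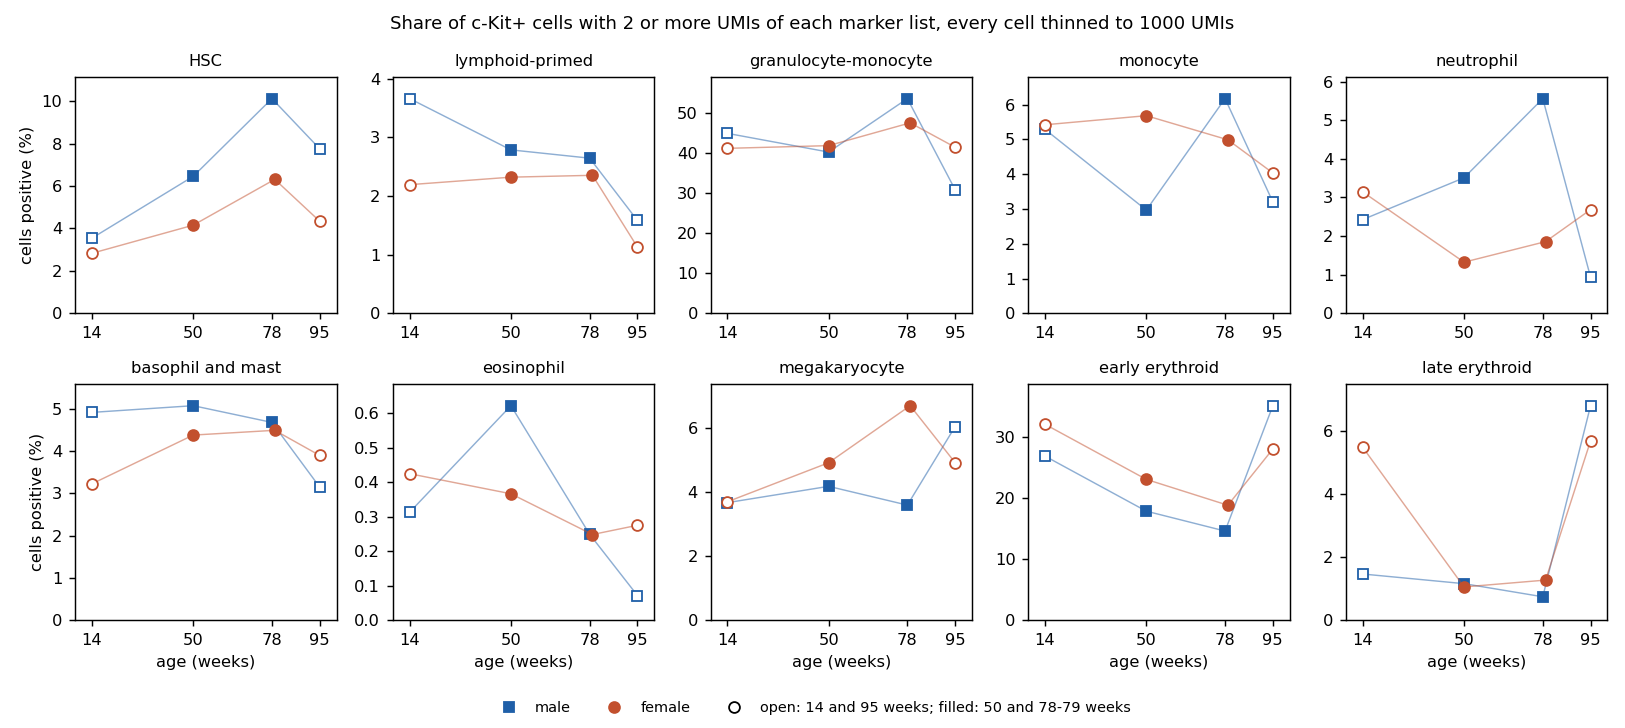
Each panel gives the share of cells (%, y axis) with 2 or more UMIs of a marker list after thinning to 1000 UMIs, against age in weeks (x axis), for males (blue squares) and females (orange circles); filled points are the 4 mice compared and open points the mice of 14 and 95 weeks. HSC and granulocyte-monocyte shares are higher at 78 to 79 than at 50 weeks in both sexes, with HSC at 10.1% in the old male, while the monocyte and megakaryocyte shares differ in direction between the sexes.

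Within the positive cells, Mpo and Elane also took a larger share of the UMIs in both old mice. Positive cells were called again without the gene in question, so that a gene could not select its own cells. Mpo within granulocyte-monocyte-positive cells then lay at 2927, 3551, 4734 and 4336 CPM, above the middle-aged values in both old mice. Elane lay at 2517, 2206, 6479 and 3108, again without overlap. Prtn3, at 6409.9, 4488, 7587 and 4424, did not separate the ages in females, nor did Ms4a3, at 831, 548, 852 and 503. Ctsg, at 3082, 2652, 4097 and 2907, overlapped between the ages. The positive cells held 48.2% and 45.2% of all UMIs in the middle-aged mice and 54.3% and 51.0% in the old mice. Their median depth was 22730 and 22380 UMIs at 50 weeks and 17987.5 and 14091 at 78 to 79 weeks. A larger share was therefore not more transcripts per cell in both sexes: Mpo had 121431 UMIs in 1830 cells of the middle-aged male and 221549 in 2605 of the old male, which is more per cell, but 142359 in 1823 cells of the middle-aged female and 156488 in 2519 of the old female, which is fewer.

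Other early myeloid genes lay in the same direction. A list of 20 genes of early myeloid cells was put together after the values were seen and is therefore no independent evidence. It holds surface molecules, enzymes, transcription factors and secreted proteins. Cebpe is also in the neutrophil list, Csf3r in the cytokine receptor list and Alas1 in the heme synthesis list. Both old mice were above both middle-aged mice at 15 genes (75%, against 22.2% of all tested genes). Both were below at 1 (Csf3r, the receptor of the granulocyte growth factor), and the median log2 difference was 0.58. In sum the list took 2834, 2789.5, 4187 and 3333 CPM, with 3354 and 2671 in the young and 2120 and 2836 in the very old mice. Ly6c2, a surface antigen of monocyte-committed cells, was at 67.1, 86.6, 225 and 128 CPM (log2 difference 1.21 ± 0.33). Mgst1, a glutathione transferase of the membranes, was at 14.8, 18.8, 50.8 and 28.2 (1.22 ± 0.28), the largest difference among autosomal genes with a gene symbol, at 20 or more CPM, whose groups did not overlap. For both genes the old male had the highest level of the 4 mice, and the young mice (139 and 129.6 for Ly6c2, 31.5 and 26 for Mgst1) lay between the middle-aged mice and the old male. For Ly6c2 both young mice were above the old female, and for Mgst1 the young male was. Tyrobp and Fcer1g, adaptor proteins of activating myeloid receptors, were at 119, 156, 248 and 204 and at 89.3, 107, 163 and 139. Slpi, a secreted inhibitor of leukocyte elastase, was at 71.1, 79.9, 158 and 102. DESeq2 called these 3 genes (adjusted p of 0.0208, 0.0103 and 0.0198), and edgeR called none of them.

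**Figure D3:**
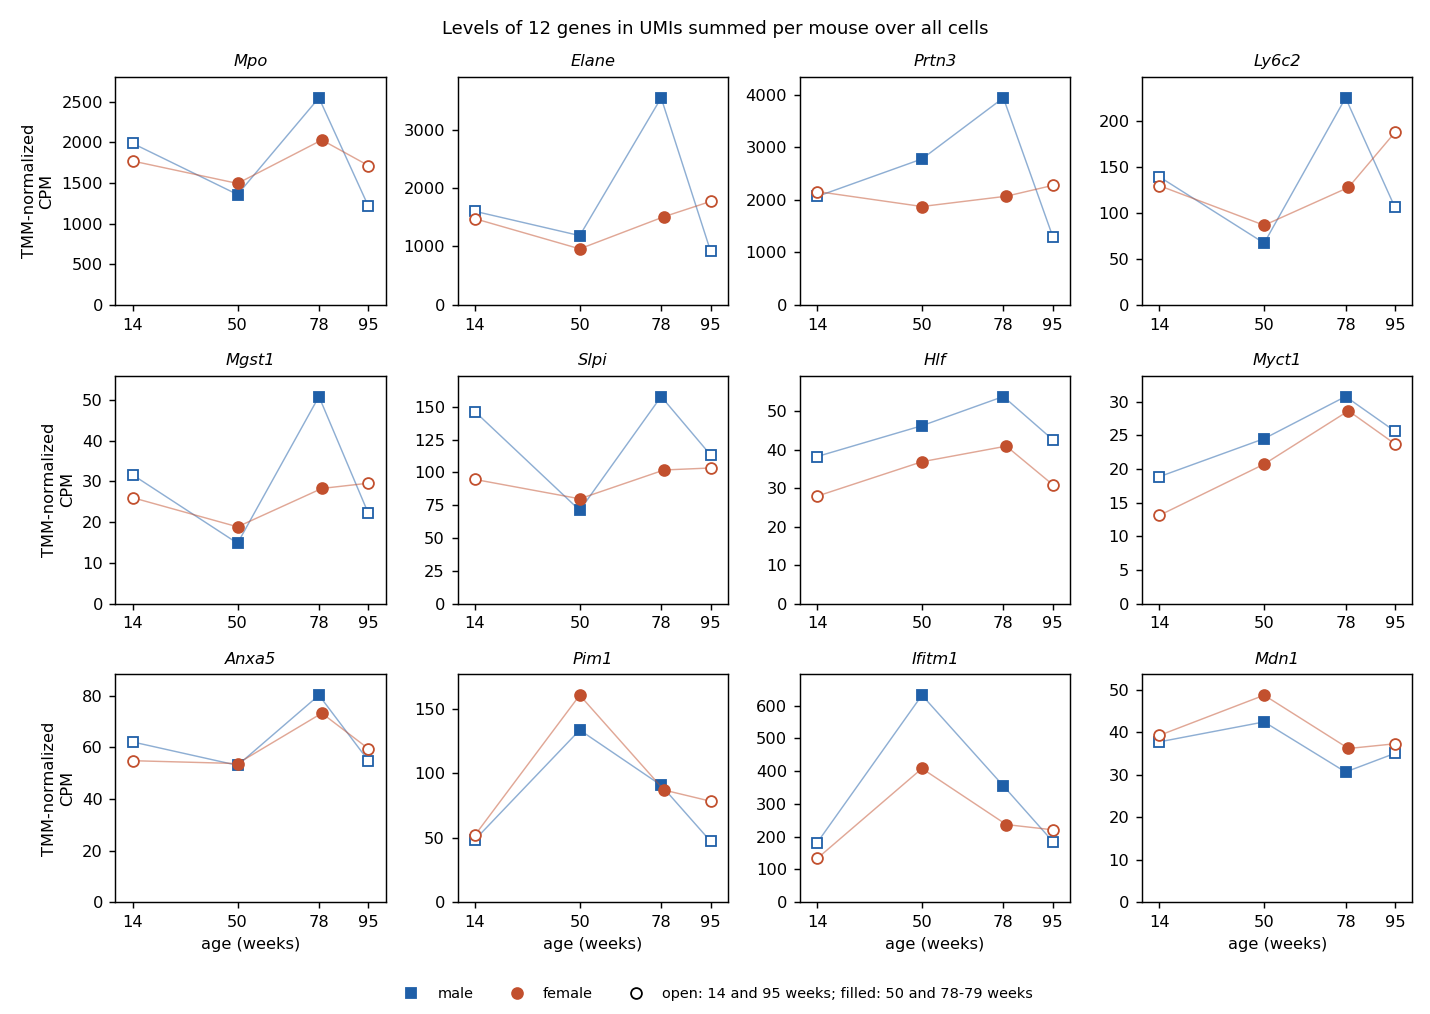
Each panel gives the level of a gene in UMIs summed per mouse (TMM-normalized CPM, y axis) against age in weeks (x axis), for males (blue squares) and females (orange circles); filled points are the 4 mice compared and open points the mice of 14 and 95 weeks. Mpo, Elane, Ly6c2, Mgst1, Slpi and Anxa5 are higher in both old mice than in both middle-aged mice, and Pim1, Ifitm1 and Mdn1 are lower.

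Within granulocyte-monocyte-positive cells, Ly6c2 lay at 138, 193, 402 and 254 CPM, Mgst1 at 24.1, 38.4, 85.8 and 51.5, and Slpi at 142, 174, 275 and 197. Each of these 3 was higher in both old mice among cells of one branch. The added list as a whole was higher in both old mice in 5 of 8 cell classes. These were cells positive for the HSC, granulocyte-monocyte, monocyte, and basophil and mast lists and cells positive for no list. The classes overlap, since a cell can be positive for several lists. In all 5, both old mice also had fewer UMIs per cell at the median and a larger share of mitochondrial transcripts. The part of these in the levels was not tested.

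Later myeloid branches differed in direction. The neutrophil list was higher in the old mouse of each sex, at 1196, 87.8, 1292 and 459 CPM (1.08 times in males and 5.23 times in females), and 11 of its 13 genes had a fitted log2 difference above 0, with a median of 0.77. The ages overlapped, and the pooled log2 difference of 1.25 was -0.64 without the middle-aged female. Neutrophil genes, the contents of secondary granules and later, were carried by few cells and ranged widely within an age. S100a8, a calcium-binding protein of neutrophils, was at 432, 30.5, 533 and 133 CPM, and Camp, an antimicrobial peptide, at 120.0, 0.488, 136 and 46.3, so both females were below both males. Of the 13 neutrophil genes only Cebpe, the transcription factor that sets up secondary granules, separated the ages, at 39.9, 36.7, 71.0 and 53.4. Neutrophil-positive cells made up 3.51%, 1.32%, 5.56% and 1.86%, higher in the old mouse of each sex with overlap between the ages. In early erythroid-positive cells the neutrophil, monocyte, lymphoid-primed, eosinophil, and basophil and mast lists were each found in at most 1.05% of cells. The monocyte list differed between the sexes: positive cells made up 2.97% of cells in the middle-aged male and 6.17% in the old male, but 5.68% and 4.99% in the females. Among its genes Ms4a6c was at 72.7, 96.1, 137 and 107, Ly86, a partner of an innate immune receptor, at 23.5, 33.0, 43.7 and 37.4, and F13a1, a clotting factor subunit of monocytes, at 25.9, 63.3, 68.6 and 51.7. The middle-aged male was the lowest of the 4 for all 3, and only F13a1 overlapped between the ages.

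Of the 4 eosinophil genes, 2 lay lower in both old mice, 1 lay higher in both, and neither edgeR nor DESeq2 called any. Prg2, the major basic protein of eosinophil granules, was at 97.3, 42.2, 36.6 and 31.4 CPM (log2 difference -1.10 ± 0.63), and Epx, eosinophil peroxidase, at 2.73, 1.45, 1.03 and 0.536 (-1.41 ± 0.57). Both old mice were below both middle-aged mice at these 2 of the 4 genes (50%, against 19.2% of all tested genes), and at Il5ra they were above. The middle-aged male was more than 2 times the middle-aged female for Prg2, so the spread within the age was large. Positive cells numbered only 31, 18, 13 and 15, which is 0.621%, 0.366%, 0.249% and 0.249%. Wilson intervals reached from 0.438% to 0.881% in the middle-aged male and from 0.151% to 0.410% in the old female, and those of the females overlapped. Basophil and mast cell genes did not separate the ages as a list, with positive cells at 5.07%, 4.38%, 4.68% and 4.49%. In that list Cpa3, a mast cell carboxypeptidase, was at 95.6, 82.2, 94.7 and 95.3. Cma1, a mast cell chymase, was at 3.94, 2.64, 0.850 and 1.61, and was the only gene of the list called by DESeq2 (adjusted p = 0.0131).

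The HSC list was higher in the old mouse of each sex, but overlapped between the ages in its sum and in its share of cells. Of its 13 genes, 12 had a positive log2 difference (median 0.40), and neither edgeR nor DESeq2 called any. Both old mice lay above both middle-aged mice at 4 genes (30.8%, against 22.2% of all tested genes), namely Mllt3, Myct1, Hoxb5 and Pdzk1ip1. The list took 201 and 160.2 CPM at 50 weeks and 227 and 195 at 78 to 79 weeks, so the old female was below the middle-aged male. Hlf, a transcription factor that marks HSC, was at 46.2, 36.8, 53.8 and 40.9 CPM (log2 difference 0.18 ± 0.07). Myct1, which marks HSC and endothelium, was at 24.5, 20.7, 30.7 and 28.6 (0.40 ± 0.11), and Mllt3, a regulator of HSC maintenance, at 22.7, 24.4, 33.4 and 26.1 (0.34 ± 0.23). Procr, the receptor used to sort HSC, was at 10.7, 5.37, 14.0 and 8.44 (0.52 ± 0.12). Hlf and Procr were higher in the old mouse of each sex and higher in males than in females at both ages, so the groups overlapped. Ly6a, the Sca-1 antigen, went the other way in males, at 33.3, 14.4, 22.1 and 19.1.

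HSC-positive cells made up 6.45% (322 cells, 95% Wilson interval 5.81% to 7.17%) and 4.15% (204 cells, 3.63% to 4.75%) at 50 weeks, and 10.1% (528 cells, 9.33% to 11%) and 6.31% (381 cells, 5.73% to 6.95%) at 78 to 79 weeks. The old mouse was above the middle-aged mouse in each sex by more than the intervals, but the old female and the middle-aged male had nearly the same share. The log2 difference between the ages, 0.63, was 0.25 after thinning to 3000 UMIs and 0.21 when 1 UMI made a cell positive. The young mice had 3.54% and 2.83%, and the very old mice 7.75% and 4.34%. Without thinning the shares were 51.8%, 50.9%, 47.8% and 42.5%, the opposite order, in cells that were less deeply sampled in the old mice. Of the 148, 279, 322 and 301 monocyte-positive cells, which should lack these genes, at most 1 cell in a mouse was HSC-positive, at median depths of 28167, 25203, 22189.5 and 16200 UMIs. HSC-positive cells had median depths of 9410, 10519.5, 7958.5 and 7246 UMIs. Of the 1435 HSC-positive cells in the 4 mice, 455 (31.7%) were also granulocyte-monocyte-positive, 4.11% megakaryocyte-positive and 2.58% early erythroid-positive. The class is therefore not one of stem cells alone.

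Within HSC-positive cells, Mecom, a transcription factor needed for HSC, was at 115, 109.7, 146 and 135 CPM, and Myct1 at 108, 99.8, 166 and 124. Both genes were higher in both old mice. Hlf was higher only in the old male, at 288, 287, 418 and 276, and Kit, at 119.8, 179, 176 and 155, did not separate the ages.

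Most genes that are known to rise in aged HSC lay higher at 78 to 79 than at 50 weeks in sums over all progenitors. In these sums HSC-positive cells also made up a larger share in the old mouse of each sex. Of 19 such genes, 18 had a positive log2 difference, with a median of 0.51. Both old mice lay above both middle-aged mice at 12 (63.2%, against 22.2% of all tested genes) and below at 0, and DESeq2 called 4 (Sbspon, Plscr2, Cyp26b1 and Ramp2). The list was chosen with earlier results of these data known, so this share is no independent evidence. Sult1a1, a sulfotransferase, was at 7.90, 6.69, 20.1 and 10.6 CPM, against 0.746 and 0.870 in the young mice and 11.9 and 4.09 in the very old mice. Vwf, the von Willebrand factor, which marks platelet-biased HSC, was at 7.35, 9.55, 12.3 and 13.9, and Clu, clusterin, at 6.11, 4.65, 10.8 and 6.83. Plscr2, a phospholipid scramblase, was at 3.67, 2.31, 6.81 and 5.64 (log2 difference 1.07 ± 0.22, DESeq2 adjusted p = 0.00812). Selp, P-selectin, was at 7.88, 8.77, 7.59 and 9.04, so it did not separate these ages, although the young mice lay lower, at 1.73 and 2.90.

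The sum of the aged-HSC list gave another order, 429, 637, 649 and 524 CPM, since the metallothioneins Mt1 (240.0, 377, 362 and 272) and Mt2 (45.4, 111, 88.6 and 69.4) took most of it. Within HSC-positive cells the list was higher in both old mice, at 765.7, 760.1, 1321 and 922.9. There Sult1a1 was at 92.4, 105, 204 and 130.1, Clu at 28.0, 22.4, 64.4 and 40.8, and Plscr2 at 28.0, 18.4, 49.4 and 33.3. These 3 genes, chosen after their values were seen, thus separated the ages in the HSC-positive cells too. Of 8 cell classes the list was higher in both old mice in 2 and lower in 1, the monocyte-positive cells, at 233, 246, 215 and 187.

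Megakaryocyte genes were led by Pf4, platelet factor 4, at 155, 229, 210.2 and 397 CPM, with the old female far above the other 3 mice. Each of the 8 tested genes had a positive log2 difference (median 0.36), but only Ppbp and Clec1b, a platelet receptor at 1.01, 1.43, 2.06 and 2.24, separated the ages. Itga2b, the platelet integrin also found on early progenitors, was at 45.3, 47.9, 40.8 and 52.6. Positive cells made up 4.19% and 3.60% in the middle-aged and the old male and 4.93% and 6.71% in the females, so the sexes differed in direction. In monocyte-positive cells 1 cell in each mouse was positive. Within positive cells Pf4 was higher in both old mice, at 3495, 4458, 5655 and 6408.

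Early erythroid genes separated the ages at 0 of 10. Car1, carbonic anhydrase 1, was at 736, 879.9, 1057 and 735 CPM, Klf1, the master transcription factor of the branch, at 62.5, 89.4, 80.3 and 74.7, and the water channel gene Aqp1 at 55.2, 76.8, 65.5 and 72.6. The list sum was 1087, 1419, 1432 and 1213, higher in the old male and lower in the old female than in the middle-aged mouse of their sex. The young mice had 2042 and 2318 and the very old mice 3172 and 2226, above all 4 mice compared. Positive cells made up 17.9%, 23.1%, 14.6% and 18.9%, lower in the old mouse of each sex, but with overlap between the ages. The share in monocyte-positive cells was 0.676%, 1.08%, 0.311% and 0.997%. The median depth of early erythroid-positive cells was 28787 UMIs in the old male against 16598 in the middle-aged male, while it was 12407 against 19108 in the females. The share of cells and the share of UMIs therefore went against each other in males, and no order is read from either. Within positive cells Car1 (3373, 2758, 3692 and 2794) and Klf1 (248, 247, 257 and 256) were close between the ages. Late erythroid genes, with Hbb-bs (beta globin) at 1.62, 4.21, 16.2 and 4.46, were scarce in all 4 mice, and the young female and both very old mice were at 48.1 or above.

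Lymphoid genes were scarce as well. Lymphoid-primed cells made up 2.79%, 2.32%, 2.64% and 2.35% of cells. Dntt, the terminal transferase of early lymphoid cells, was at 67.9, 36.7, 34.4 and 40.3 CPM, and the cytokine receptor Flt3 at 30.9, 26.6, 30.7 and 30.8, with the groups overlapping in both. Satb1, a chromatin organiser of lymphoid cells, was at 25.3, 23.1, 26 and 28.9, and separated the ages narrowly. Of the B-lineage genes, Cd79b was at 27.2, 22.5, 31.5 and 27.2, while positive cells stayed at or below 0.160% in each mouse. T and innate lymphoid cells stayed at or below 0.116%, and dendritic cells at or below 0.220%. In UMIs the T and innate lymphoid list was low but higher in both old mice, at 6.24, 5.24, 9.88 and 8.06 CPM. Its 7 tested genes all had a positive log2 difference (median 0.55), and neither edgeR nor DESeq2 called any. At 2 of them (28.6%, against 22.2% of all tested genes) both old mice lay above both middle-aged mice. Gata3 was found in 0.681%, 0.651%, 0.824% and 0.712% of thinned cells, and each other tested gene of the list in at most 0.160%. In the old female 0.0878% of early erythroid-positive cells were positive for the B-lineage list and the same share for the T and innate lymphoid list, so such small shares are not read as expression.

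**Figure D4:**
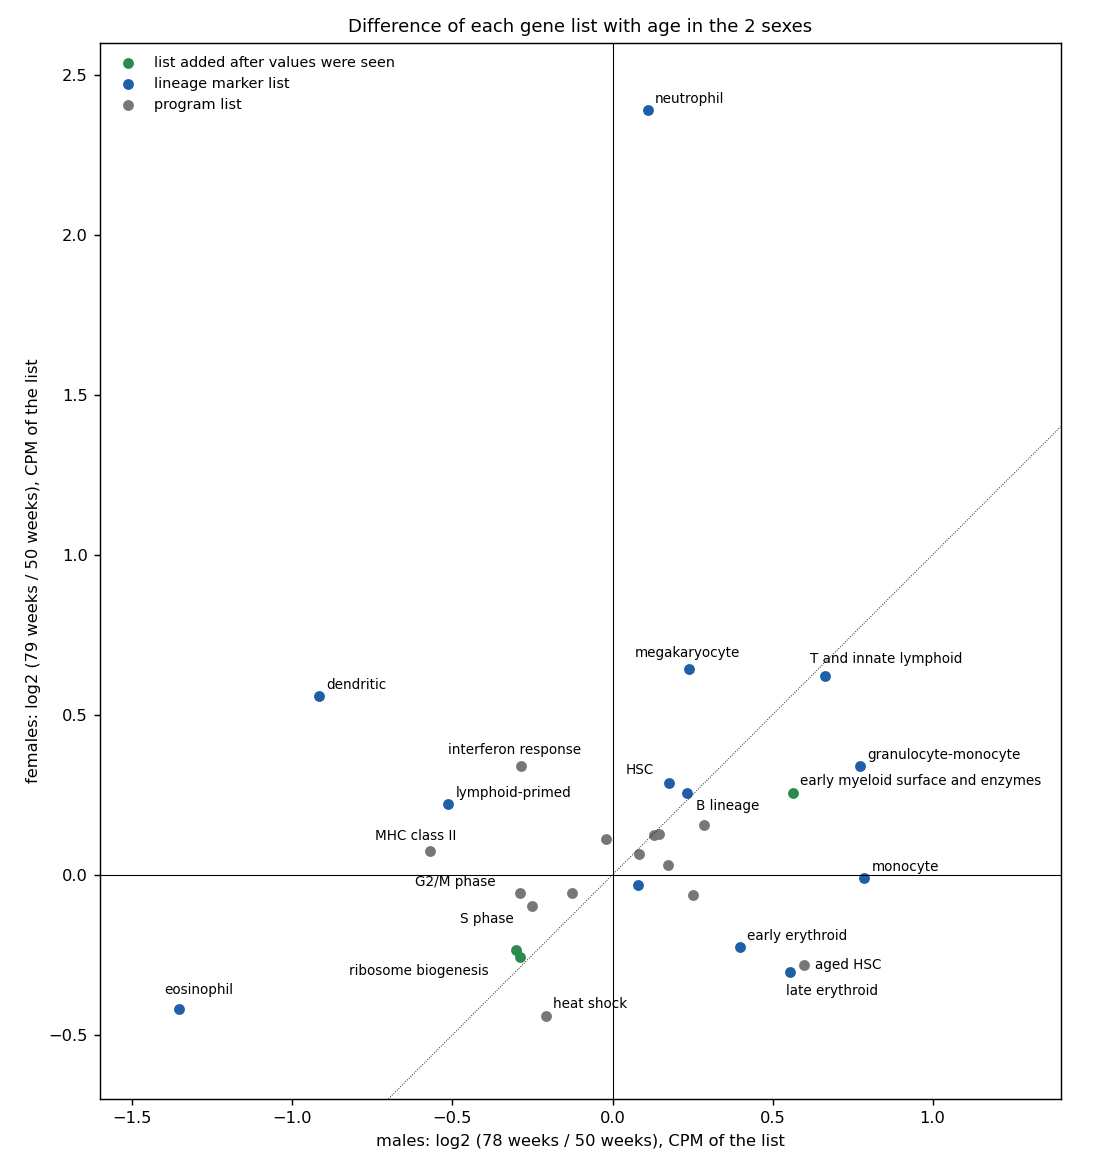
Each point is a gene list, with the log2 ratio of its CPM at 78 against 50 weeks in males on the x axis and at 79 against 50 weeks in females on the y axis; the dotted line marks equal ratios, blue points are lineage lists, grey points programme lists and green points lists added after values were seen. Granulocyte-monocyte, neutrophil, HSC and megakaryocyte lists lie above 0 in both sexes, the neutrophil list far higher in females, eosinophil, heat shock and ribosome biogenesis lists lie below 0 in both, and the monocyte, erythroid, dendritic and lymphoid-primed lists differ in sign; lists of other cells are not drawn.

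Genes of ribosome biogenesis were lower in the old mice. The nucleolus makes ribosomes by transcribing ribosomal RNA and folding and cutting it with many assembly factors, and fast-dividing progenitors depend on it. Of 30 such genes, a list put together after the values were seen and therefore no independent evidence, all 30 had a negative log2 difference, with a median of -0.28, and at 28 both old mice lay below both middle-aged mice, where 19.2% of all tested genes and 30.5% of those at 20 or more CPM did. The exceptions were Fbl and Npm1. An unadjusted p under 0.05 from edgeR was found at 24, and DESeq2 called 6. The list took 8958 and 8767 CPM at 50 weeks and 7338 and 7339 at 78 to 79 weeks, with 7731 and 8282 in the young and 8577 and 7904 in the very old mice. The middle-aged mice held the highest values of all 8 and the old mice the lowest.

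Promoters are shown for Mdn1 and Pes1, ribosome assembly factors, with capitals at CACGTG, the E-box letters that MYC, a known activator of ribosome biogenesis, recognises. They lie on the plus strand at chr4:32656869-32657168 (Mdn1) and chr11:3963725-3964024 (Pes1) of GRCm38.p6, with the same window as above.
Mdn1: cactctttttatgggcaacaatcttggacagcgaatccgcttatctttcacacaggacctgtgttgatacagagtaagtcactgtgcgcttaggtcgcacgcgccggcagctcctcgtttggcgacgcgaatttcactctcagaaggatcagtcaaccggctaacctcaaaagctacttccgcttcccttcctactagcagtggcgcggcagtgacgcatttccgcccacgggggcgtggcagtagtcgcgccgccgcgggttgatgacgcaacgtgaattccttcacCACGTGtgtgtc
Pes1: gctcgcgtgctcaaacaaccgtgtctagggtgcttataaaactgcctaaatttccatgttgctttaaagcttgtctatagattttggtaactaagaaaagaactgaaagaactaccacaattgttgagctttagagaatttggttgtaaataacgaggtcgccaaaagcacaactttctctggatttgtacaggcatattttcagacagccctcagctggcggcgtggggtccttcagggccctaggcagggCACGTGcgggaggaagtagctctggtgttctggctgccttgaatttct

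CACGTG stood in 5 of the 26 ribosome biogenesis promoters found in the RefSeq table (Mdn1, Nop2, Utp20, Pes1 and Wdr43), in 7.24% of all 27025 promoters (1957 of them) and in 0 of the 5 granulocyte-monocyte promoters. The letters read the same on both strands, and 12 of the 26 promoters, that of Pes1 included, also hold GAGGAA. No binding was measured.

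Mdn1, an ATPase that pulls assembly factors off the large subunit, was at 42.4, 48.7, 30.6 and 36.2 CPM (log2 difference -0.45 ± 0.07). Rrp1b, a nucleolar processing factor, was at 68.2, 67.9, 46.4 and 49.8 (-0.50 ± 0.08), and Ncl, nucleolin, at 1817, 1753, 1379.6 and 1425 (-0.35 ± 0.09). For Rrp1b and Ncl the mice of an age were closer to each other than to either mouse of the other age, and for Mdn1 the ages did not overlap but lay closer. Nolc1, a nucleolar chaperone, was at 192, 187, 141 and 151, and Pes1 at 59.7, 60.5, 54.8 and 52.2. DESeq2 called Mdn1 (adjusted p = 0.00112), Rrp1b (0.000425), Ncl (0.0489) and Nolc1 (0.0144) but not Pes1 (0.522), and edgeR called none of the 5.

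The lower level of the ribosome biogenesis list was found in most cell classes, but these classes are not separate branches. Of neutrophil-, monocyte-, and basophil and mast-positive cells, 94.2%, 82.9% and 68.7% were also granulocyte-monocyte-positive, as were 31.7% of HSC-positive cells. Within granulocyte-monocyte-positive cells the list took 9434, 8382, 5937 and 6723 CPM, and within HSC-positive cells 6287, 5770, 3880 and 4963. Both old mice were below both middle-aged mice in 7 of 8 cell classes. The exception was the early erythroid class, at 10321, 10916, 11647 and 10064, where the old male was the highest. Depth moved with these levels: in all 7 classes where the list was lower, both old mice also had fewer UMIs per cell at the median than both middle-aged mice (12843, 12643.5, 9490 and 8665 in cells positive for no list), and in the early erythroid class the old male was the deepest (16598, 19108, 28787 and 12407). The share of mitochondrial transcripts was higher in both old mice in 8 of 8 classes, early erythroid cells included, and in granulocyte-monocyte-positive cells it lay at 43938, 45064, 49381 and 49554 CPM. The heat shock, serine and one-carbon, and ribosomal protein lists described below separated the ages in the same 7 classes. The part of depth and of the mitochondrial share in all these levels was not tested.

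Most enzymes of serine synthesis and one-carbon metabolism, which supply purines and methyl groups, were lower as well. In this list, likewise added after the values were seen, both old mice lay below both middle-aged mice at 9 of 12 tested genes (median log2 difference -0.23) and above at 0. It took 1053, 999, 854 and 849 CPM, with 919 and 919 in the young and 852 and 825 in the very old mice. The middle-aged mice thus held higher values than the young mice too. Mtap, which salvages methionine from methylthioadenosine, was at 57.6, 53.8, 42.4 and 40.9 CPM (log2 difference -0.42 ± 0.06, DESeq2 adjusted p = 0.000329). Shmt1, serine hydroxymethyltransferase, was at 44.4, 41.0, 31.3 and 32.2, and Phgdh, the first enzyme of serine synthesis, at 355, 322, 299 and 275. All 3 separated the ages in both sexes. The whole list was lower in both old mice in 7 of 8 cell classes, early erythroid cells being the exception (932, 1028, 1120 and 880).

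Heat shock genes were lower in both old mice at 5 of 9 (55.6%, against 19.2% of all tested genes and 30.5% of those at 20 or more CPM). These were Hspa8, Hsp90aa1, Hspd1, Hspe1 and Hsph1. The list took 6387, 7021, 5533 and 5175 CPM, with 5794 and 6212 in the young and 5305 and 5284 in the very old mice. The middle-aged mice thus held higher values than the young mice too. Hspa8 was at 2432, 2979.8, 2252 and 2271 CPM, Hsp90aa1 at 2009, 1949.8, 1746 and 1379.6, and Hspd1, the mitochondrial chaperonin, at 822, 778, 672 and 577. Hspa1a, a stress-inducible chaperone, gave no such order, at 16.8, 12.2, 49.6 and 0.512, with the old male and the old female at the extremes. Within granulocyte-monocyte-positive cells the heat shock list took 6618, 6681, 4304 and 4662 CPM. Both old mice lay below both middle-aged mice in 7 of the 8 overlapping cell classes, early erythroid cells being the exception (7762, 8833, 9161 and 7242).

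**Figure D5:**
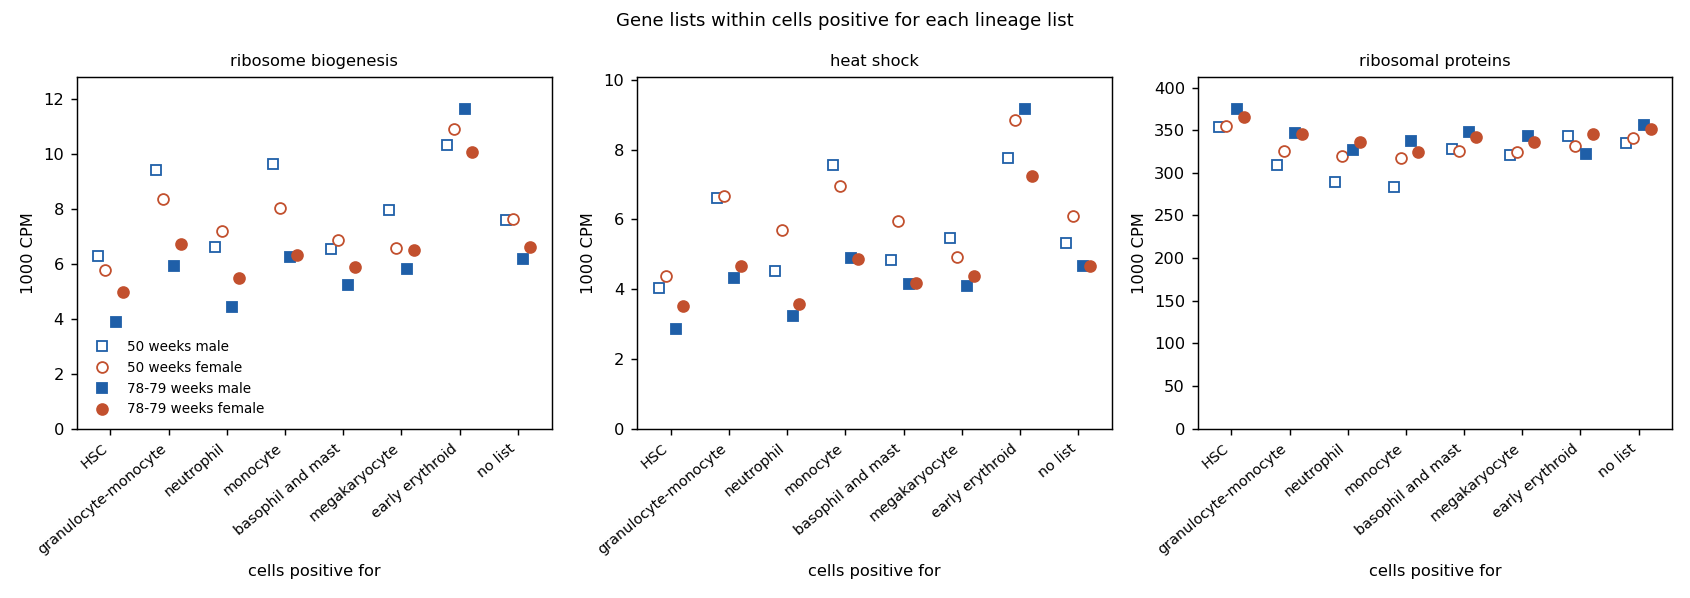
Each panel gives the UMIs of a gene list (1000 CPM, y axis) in the cells positive for each lineage list or for none (x axis), with open symbols for 50 weeks, filled symbols for 78 to 79 weeks, blue squares for males and orange circles for females. Ribosome biogenesis and heat shock genes lie lower in both old mice in 7 of 8 classes, early erythroid cells being the exception. Ribosomal protein genes lie higher in both old mice in 7 of 8. The classes overlap, since a cell can be positive for several lists.

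Most ribosomal protein genes, which code for the parts that are assembled, lay slightly higher. Of 83 tested genes, both old mice were above both middle-aged mice at 50 (60.2%) and below at 1 (1.20%), with a median log2 difference of 0.11. All tested genes gave 22.2% and 19.2%. The list took 322970.0 and 330320.0 CPM at 50 weeks against 342402 and 345886, about a 1.05-fold to 1.06-fold difference. Genes of the mitochondrial genome took 45306 and 45101 against 49583 and 49179, with 6 of 13 above (46.2%) and 0 below. Cells over 10% in these genes had been left out, at 20.9%, 18.5%, 17.5% and 17.9% of barcodes.

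Most S-phase genes were lower in both old mice by small amounts. Of 19 S-phase genes, 13 lay below and 0 above (median log2 difference -0.14), with Pcna, the sliding clamp, at 243, 237, 216 and 215 CPM, Mcm6, a subunit of the replicative helicase, at 226, 215, 203 and 209, and Hells, a chromatin remodeller, at 119, 105, 86.0 and 90.2. In the very old mice Pcna was at 326 and 301. Of 21 G2/M genes, 6 lay below and 1 above. Top2a was at 262, 278, 201 and 269, and Mki67, the proliferation antigen, at 181, 219.5, 157 and 199, so the old female overlapped with the middle-aged mice. The share of genes below, 6 of 21, is near the 30.5% found among all genes of such levels.

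Immediate-early genes, which signals switch on within minutes, were higher in both old mice at 6 of 14 and lower at 1. These shares are 42.9% and 7.14%, against 22.2% and 19.2% of all tested genes. Btg2, an antiproliferative gene, was at 11, 10.4, 21.5 and 18.1 CPM, the clearest of them (log2 difference 0.89 ± 0.11, DESeq2 adjusted p = 4.02e-06), and within HSC-positive cells at 5.59, 13.5, 29.5 and 21.4. Jun was at 42.6, 53.2, 79.6 and 60.4, and in the very old mice at 12.3 and 14.1. The handling of the cells, which can switch on such genes, was not measured, and its part was not tested.

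The remaining genes with the clearest differences were chosen after their values were seen. DESeq2 called 21 autosomal genes with a gene symbol higher and 57 lower that also lay at 20 or more CPM with no overlap between the ages. Genes of that kind without overlap, called or not, numbered 757 higher and 1550 lower. Among the higher genes, Anxa5, a phospholipid-binding annexin, was at 53, 53.7, 80.2 and 73.2 CPM (log2 difference 0.52 ± 0.09). Neat1, the RNA of paraspeckles, was at 35.0, 35.9, 47.5 and 59.9, and Ypel3, a gene linked to growth arrest, at 39.1, 36.2, 65.3 and 57.0. For each, both old mice lay above both middle-aged mice.

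Among the lower genes, Pim1 and Ifitm1 were abundant. Pim1, a kinase induced by cytokine signals through STAT5, was at 134, 161, 90.7 and 87.0 CPM (log2 difference -0.71 ± 0.17, DESeq2 adjusted p = 0.00798), with 48.6 and 52.2 in the young mice. Ifitm1, an interferon-induced membrane protein, was at 632, 408, 355 and 237 (-0.81 ± 0.20, DESeq2 adjusted p = 0.00639), with 182 and 134 in the young mice. Both genes were thus highest at 50 weeks of all 4 ages. Within granulocyte-monocyte-positive cells Pim1 was at 145, 181, 74.6 and 83.6 and Ifitm1 at 586, 317, 262 and 204, both without overlap. Within early erythroid-positive cells Ifitm1 was at 337, 355, 164 and 147. In HSC-positive cells the groups overlapped for both, with Pim1 at 355, 628, 369.5 and 312 and Ifitm1 at 1768, 868, 1613 and 865.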

How the data were processed

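Single-cell RNA-seq was read for 8 wild-type mice, of which 4 are compared. The authors aligned the reads and counted UMIs with Cell Ranger (6.0.0 in the file headers, another version in their methods, build mm10 per the labels) and deposited UMI counts per gene and cell for the barcodes taken as cells, without normalization or cell types. The labels name chemistry v.3 and the series text v4. A barcode was kept with 1000 or more UMIs and under 10% in mt- genes, where the study's stated filter was 200 detected genes. Doublets were kept in the main setting. Scrublet (scanpy 1.11.5) called under 0.5% of barcodes in 5 of the 8 libraries, so the top-scoring 0.8% per 1000 cells was left out in an alternative.

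Counts were summed per mouse over all kept cells, since the mouse is the replicate. edgeR 4.0.16 (TMM, filterByExpr, quasi-likelihood test, R 4.3.3) was fitted to all 8 mice with age group and sex, which leaves 3 residual degrees of freedom, and old minus middle-aged was tested with Benjamini-Hochberg adjustment at 0.05. DESeq2 1.42.0 was an alternative. The labels put the very old mice in a separate series of libraries, so their age and that series cannot be told apart. On simulated counts for this comparison (14996 genes, 200 changed) edgeR recovered 59% of genes changed by 1 and 86.9% of those changed by 2 on the log2 scale, with 7 false calls. Each gene was drawn on its own, with the same change in both old mice. Differences in response between the sexes and shifts shared by many genes were left out, so these rates need not hold for the real counts.

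Marker lists were summed as UMIs scaled to 1000000 per mouse (CPM) without TMM scaling, and levels of single genes over all cells as CPM with it. Levels within positive cells were scaled to 1000000 UMIs of those cells, without TMM scaling. Cells were thinned with Python 3.11.15 to 1000 UMIs before positive cells were counted. Lists, members and rules were chosen with earlier results of these data known, and 3 lists were added after the values were seen. The rule named autosomal genes with a symbol past the test (there were 0), the 3 highest genes of each list, and Kit. All other genes named were chosen after their values were seen. Each sex has 1 mouse per age. The spread behind the p-values therefore holds both the differences between mice and any different response of the sexes to age. The columns of the matrices are cells, so no column of another sample was present. Alternatives covered tool, scaling, filters, samples in the fit, thinning, doublets and leaving out each mouse.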

Additional observations from a re-analysis of the deposited data

Results flagged for a closer look

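Between the sexes, several gene lists lay on opposite sides of 0 in the old against the middle-aged mouse, each from 1 mouse per sex and age, and these differences between sexes were not tested. The edgeR test of a different response to age in the sexes, gene by gene, gave 0 calls (191 genes at an unadjusted p under 0.05, smallest adjusted p = 1). Its spread came from the young and very old mice alone, so it cannot decide whether the sexes differ. Unless given as times or percent, values in this section are log2 ratios, males first and females second.

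Monocyte genes, of cells that become macrophages and inflammatory monocytes, gave 0.786 and -0.00926 in UMIs (CPM) and 1.06 and -0.188 in the share of positive cells, and the middle-aged male had the lowest share of the 4 mice. Erythroid genes were likewise higher in the old male and lower in the old female in CPM, at 0.398 and -0.226 for the early and 0.553 and -0.303 for the late list, and the share of late erythroid cells gave -0.637 and 0.269. The enzymes of heme synthesis gave 0.251 and -0.0646. Megakaryocyte-positive cells gave -0.218 and 0.446. Basophil and mast cell genes gave 0.0784 and -0.0319 in UMIs and -0.117 and 0.0367 in cells.

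Among lymphoid and antigen-presenting lists, the lymphoid-primed list gave -0.513 and 0.221 in UMIs and -0.0752 and 0.0196 in cells, and dendritic genes -0.918 and 0.558 in UMIs and -1.2 and 0.925 in cells. T and innate lymphoid cells gave -0.0647 and 2.51 in cells, from a share of at most 0.116% in any of the 4 mice, while the same list in UMIs was higher in the old mouse of both sexes (1.58 and 1.54 times). MHC class II genes, which present antigen, gave -0.572 and 0.0734, MHC class I genes -0.0202 and 0.113, and interferon response genes -0.287 and 0.339. The aged-HSC list gave 0.598 and -0.283, a sum in which the metallothioneins Mt1 and Mt2 weigh most.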

How the results depend on the processing

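edgeR called 0 genes in either direction with another scaling, without a filter on low counts, in the 6 mice of one library series, without sex, from thinned cells, under both other cell filters and with doublets left out. DESeq2 called 67 higher and 75 lower, and the fit of the 4 mice alone 6 and 5; the cause was not tested. Leaving out each mouse gave 0 to 1 gene higher and 0 lower, the 1 gene being Ighg2b, an immunoglobulin heavy chain, without the old male. With 2 mice per group, a list's value cannot move by more than its spread when a mouse is left out, so ranges are given: the log2 difference of the granulocyte-monocyte list lay between 0.193 (without the old male) and 0.921 (without the old female) in UMIs and between 0.212 and 0.385 in cells, and that of the HSC list between 0.0677 and 0.396 in UMIs and between 0.286 and 0.967 in cells. The sign changed for 17 of 120 such values in UMIs and 11 of 52 in cells.

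Thinning the cells before summing, which gives every cell the same weight, turned the early erythroid list to -0.175 (from 0.086) and moved the dendritic list to -0.755 (from -0.18) and the late erythroid list to 0.722 (from 0.125). It moved the HSC list to 0.405 (from 0.232). For shares of cells, the HSC list moved to 0.254 after thinning to 3000 UMIs and 0.215 with 1 or more UMIs (from 0.626), the granulocyte-monocyte list moved to 0.19 after thinning to 3000 UMIs and 0.195 with 1 or more UMIs (from 0.298), the eosinophil list to -0.533 at 3000 UMIs (from -0.939) and the late erythroid list to -0.792 with 3 or more UMIs (from -0.184). The B-lineage list turned from -0.681 to 0.172 with 1 or more and 0.319 with 3 or more UMIs, and lay at 0.027 in another random draw. The T and innate lymphoid list lay between 0.298 and 0.48 (from 1.22) under 1 or more UMIs, 3000 UMIs and another draw. The dendritic list (from -0.139) lay at -0.912 with 1 or more UMIs and 0.395 in another draw, and the megakaryocyte list (from 0.114) at -0.035 with 1 or more UMIs. The cause was not tested. With other settings, 112 of 120 values in UMIs and 57 of 63 in cells moved by less than the spread between mice. The sign changed in 6 of these 120 (lymphoid-primed, basophil and mast, early and late erythroid, heme synthesis) and 11 of these 63 (lymphoid-primed, B lineage, dendritic, basophil and mast, megakaryocyte). Settings that left a group without positive cells gave no value. The alternatives for the 3 added lists, and leaving out mice for levels within positive cells, were chosen after seeing the data. Sex, with 1 male and 1 female at each age, was a term of the fit and so pairs the mice, and the fit without it also gave 0 calls; replicate numbers are only the order of accession and pair nothing further. Depth per cell was 11647 to 17426.5 UMIs at the median, and how far it limits rare lists was not tested.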

Other observations

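Receptors and inflammatory genes gave values that stand in no comparison above. At 7 of 11 tested genes of the NF-kB response both old mice lay above both middle-aged mice, and at 0 below, against 22.2% and 19.2% of all tested genes, with small differences (median log2 0.17). Nfkbia, the inhibitor that NF-kB induces, was at 49.6 and 45.6 CPM in the middle-aged male and female and at 69.5 and 50.7 in the old ones, and the chemokine Ccl4 at 2.96, 3.40, 5.28 and 4.59. Both were chosen after their values were seen, and neither was called by edgeR or DESeq2. Cytokine receptors were above at 8 and below at 3 of 18 (44.4% and 16.7%, against 22.2% and 19.2% of all tested genes). Il6ra, the receptor of interleukin 6, was at 7.27, 9.43, 12.2 and 13.2, and Ifngr1, the receptor of interferon gamma, at 133, 134, 177 and 142. Csf2rb, the shared chain of the receptors for interleukin 3, interleukin 5 and GM-CSF, was lower, at 23.4, 18.9, 14.2 and 15.8, and so was Il1r1, the receptor of interleukin 1, at 6.41, 4.38, 3.79 and 3.30.

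Interferon response genes separated the ages at 2 of 17, both above (11.8%, against 22.2% of all tested genes). The list took 440.4, 412, 361 and 522 CPM, highest in the old female and lowest in the old male. Irf7, a master regulator of this response, was at 8.33, 7.12, 5.55 and 13.7. Rsad2, an antiviral enzyme, was higher in both old mice, at 3.06, 3.31, 4.50 and 6.27 (DESeq2 adjusted p = 0.0357). MHC class I genes were above at 2 of 9 (22.2%, the same share as all tested genes). Class II genes were above at 1 and below at 1 of 7 (14.3% each, against 22.2% and 19.2%). Cd74, the invariant chain, was at 184, 139.7, 99.3 and 146. Among targets of p53 and inhibitors of cyclin-dependent kinases, 5 of 15 lay above (33.3%) and 3 below (20%). All tested genes gave 22.2% and 19.2%. Cdkn1c, an inhibitor linked to HSC quiescence, was at 4.53, 2.11, 7.5 and 4.17 (DESeq2 adjusted p = 0.0137), higher in the old mouse of each sex with overlap between the ages, while Bax and Aen, effectors of p53, were lower in both old mice, at 143, 135, 126 and 118 and at 56.7, 57.6, 44.5 and 48.8. Alas1, the first enzyme of heme synthesis outside the red cell line, was at 62.5, 87.4, 109 and 108, and Alas2, its red cell form, stayed at or below 0.107 in all 4.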
